A study of Homo sapiens with 24 samples.

Results

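The subject is the distance between the GSK-J4 response of 3 neuroblastoma lines, here taken as sensitive, and that of 1 line labelled resistant. For each gene, the effect of the compound in SK-N-BE(2) was subtracted from the mean of its effects in LAN5, IMR5 and SK-N-FI. The genes were those with a mean normalized count of at least 100 in all 4 deposited tables, matched by Ensembl identifier. There were 8982 such genes, of 23874 listed in all 4 tables and 39772 listed in at least 1. The difference was tested for 8969 of them, since 13 had no p-value in 1 or more tables. Each mean covers treated and untreated libraries of a line, so a gene that rose strongly could pass with low untreated counts.

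GSK-J4 is a cell-permeable ester that releases an inhibitor of KDM6A and KDM6B, the demethylases that take methyl groups off lysine 27 of histone H3. Neuroblastoma arises from the sympathoadrenal lineage of the neural crest, and its cells keep the transcription factors and the catecholamine machinery of that lineage. When uncharged tRNA, misfolded protein or haem shortage activates the kinases of eIF2-alpha, bulk translation slows and the factors ATF4 and CHOP switch on genes for amino acid import and synthesis, a programme called the integrated stress response.

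The 8 groups were LAN5, IMR5, SK-N-FI and SK-N-BE(2), each untreated or grown for 72 hours in 1 µM GSK-J4, with 3 libraries of polyadenylated RNA per group. All 4 are established human lines; the labels give amplified MYCN for LAN5, IMR5 and SK-N-BE(2) and wild-type MYCN for SK-N-FI, and resistance for SK-N-BE(2) only. The authors' comparison of treated with untreated libraries forms 1 table per line, and values of single libraries were not analysed here, so depth per library is unknown. With a single resistant line, what goes with resistance and what goes with SK-N-BE(2) itself cannot be told apart.

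An effect below is a log2 fold change, read as treated over untreated, after the shrinkage in the deposited values was removed. Values by line always stand in the order LAN5, IMR5, SK-N-FI, SK-N-BE(2). A difference is the mean of the first 3 minus the last, given with its standard error, and it was called at a Benjamini-Hochberg adjusted p under 0.05 in a two-sided Wald test over all 8969 genes. The reading of the direction in SK-N-BE(2) rests on MT2A and SLC30A1, and the table used for SK-N-FI was matched by the likeness of its short name, as described under processing. Sympathoadrenal markers had mean normalized counts of at least 100 for 12 of 12 genes in LAN5, 10 in IMR5 and 11 in each of the other 2 lines; the catecholamine enzyme gene TH was not listed for IMR5 or SK-N-FI. The Schwann cell factor SOX10 was not listed in any table. Summed means of 11 immune and endothelial markers were between 55.2 and 176, whereas those of 11 fibroblast and muscle markers were 33858 in SK-N-BE(2) and between 1513 and 3582 in the other 3 lines, each table being normalized on its own. LUM and DCN made up 19924 and 11860 of the SK-N-BE(2) sum, whereas ACTA2 was lowest there (41.0) and COL1A1 (552) was higher in IMR5 (1104), as was PDGFRA (1798). The part of these markers in the results was not tested.

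Many genes changed in the sensitive lines and few in SK-N-BE(2). The standard deviation of the effect over the tested genes was 0.668, 0.653 and 0.532 in the sensitive lines and 0.108 in SK-N-BE(2). The median gene changed by a factor of 1.29, 1.30 and 1.24 in the sensitive lines and of 1.04 in SK-N-BE(2), with higher and lower counted alike. An effect of at least 1 in size was found for 866, 843 and 470 genes in the sensitive lines and for 2 in SK-N-BE(2). In the authors' deposited tables, 67.2%, 69.7% and 48.5% of the tested genes passed the authors' own test in the sensitive lines, against 2.20% in SK-N-BE(2). These divide into 27.1%, 32.1% and 25.1% called higher and 40.1%, 37.6% and 23.4% called lower by line, and into 1.32% and 0.881% in SK-N-BE(2). The median standard error of an effect was 0.0762 in SK-N-BE(2), the smallest of the 4 lines.

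A difference of effect was called for 5299 of 8969 genes (59.1%), 2370 higher in the sensitive lines (26.4%) and 2929 lower (32.7%). The median difference over all tested genes was -0.04. Of the called genes, 218 were higher by at least 1 (2.43%) and 159 lower by at least 1 (1.77%), and 29 and 6 reached a size of 2. The Wald test takes its error from libraries, not from the spread between lines. With an error that includes the spread among the sensitive lines (a random-effects mean), 846 genes were called higher and 1242 lower, and 277 of the 377 differences of at least 1 were still called. For 2942 of the 5299 genes, and for 363 of the 377, the call held in the same direction when each sensitive line was left out in turn.

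**Figure D1:**
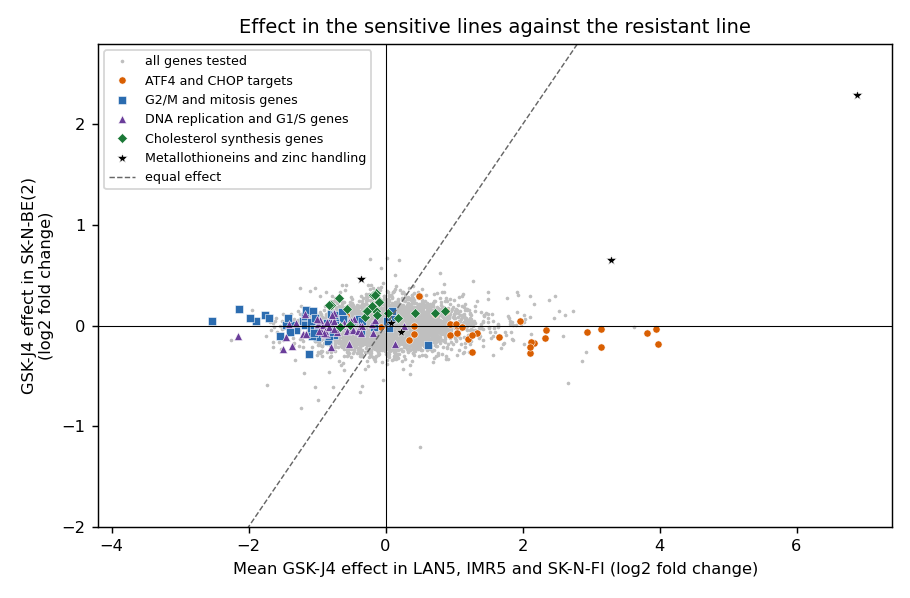
Each point is a tested gene, with the mean effect of GSK-J4 in LAN5, IMR5 and SK-N-FI on the horizontal axis and the effect in SK-N-BE(2) on the vertical axis, both as log2 fold changes; colours mark members of 5 gene lists and the dashed line marks equal effects. Most genes lie in a flat band around 0 on the vertical axis, and MT2A and SLC30A1 are the 2 stars far to the right that also lie above that band.

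Few genes passed the authors' own test in SK-N-BE(2), with or without a called difference. Of the 5299 called differences, 5139 had no call of their own in the authors' deposited SK-N-BE(2) table. Over all tested genes only 2.20% had such a call, so this count is near the share over all genes. In 61 the resistant line was called with the same sign as the sensitive mean, in 63 it was called higher where the sensitive mean was lower, and in 36 it was called lower where the sensitive mean was higher. Conversely, 197 tested genes passed the authors' test in SK-N-BE(2), 118 higher and 79 lower, and 37 of them had no called difference. Across genes, the effects of the sensitive lines correlated with each other (Pearson r from 0.40 to 0.47) and weakly with SK-N-BE(2) (r of 0.07 for LAN5, 0.13 for IMR5 and 0.02 for SK-N-FI). For the mean of the sensitive lines r with SK-N-BE(2) was 0.10, and 0.06 without MT2A and SLC30A1, whose signs set the reading of that line. The effects in SK-N-BE(2) spread little beyond their error (standard deviation 0.108, median standard error 0.0762), which lowers r with any line. Genes are not independent replicates, and these values are a description.

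The sensitive lines also differed among themselves. Their spread passed Cochran's Q test on 2 degrees of freedom for 6998 of 8969 genes (78.0%), and for 351 of the 377 differences of at least 1. In 1558 genes called higher (17.4%) and 2103 called lower (23.4%), the 3 sensitive lines all lay on one side of SK-N-BE(2); all 3 did so, called or not, for 4140 genes (46.2%). In the authors' deposited tables, each sensitive line also passed its own test in that direction for 650 of the higher genes (7.25% of those tested) and 935 of the lower ones (10.4%). Own calls of both signs among the sensitive lines were found for 1700 genes, and 561 of these still had a called difference. For that reason the values of each line are printed below, and a difference that rests on 1 line is given also without it. The counts of called members of a gene list are to be read against the 26.4% and 32.7% of all tested genes called higher and lower.

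The metal response genes MT2A and SLC30A1 were higher in the 3 sensitive lines and, by the reading of direction used here, in SK-N-BE(2). MT2A (chromosome 16, 56608199 to 56609497 on GRCh38, ENSG00000125148) encodes a metallothionein, a small cysteine-rich protein that binds zinc and copper. Its effects were 7.81, 7.61, 5.22 and 2.29, which is a rise of 225-fold, 195-fold, 37.2-fold and 4.91-fold. All 4 lines were called in the authors' deposited tables, and the groups were ordered with every sensitive line above SK-N-BE(2). The difference was 4.59 ± 0.223 (Wald test, adjusted p = 1.03e-91), the largest of all tested genes. SLC30A1 (chromosome 1, 211571568 to 211578742), which encodes a zinc exporter of the plasma membrane, had 3.88, 3.13, 2.87 and 0.65, and its difference was 2.64 ± 0.0992 (Wald test, adjusted p = 3.05e-153). The signs of both genes in SK-N-BE(2) set the reading of that table, so their rise in that line is not a result. The differences rest on that reading too: with the sign of SK-N-BE(2) reversed they would be 9.18 for MT2A and 3.94 for SLC30A1. Metallothionein genes are near copies of each other, and reads can be split between them.

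Both genes are textbook targets of MTF1, the zinc-sensing factor that binds metal response elements, so their promoters were searched for the motif TGCNCNC in the forms TGCACNC and TGCGCNC on both strands. Promoter windows, from RefSeq on GRCh38.p14, ran from 250 bases before to 50 after the start of a gene, 1 per gene, and 7238 tested genes had one. The stretch before the RefSeq start is shown for both genes, MT2A over chr16:56608334-56608583 (plus strand, 250 bases) and SLC30A1 over chr1:211579162-211579281 (minus strand, 120 bases), with matches in capitals. The RefSeq start differs from that of the gene coordinates given above, which are from GENCODE. The stretch lies inside those coordinates for MT2A and outside them for SLC30A1.
MT2A: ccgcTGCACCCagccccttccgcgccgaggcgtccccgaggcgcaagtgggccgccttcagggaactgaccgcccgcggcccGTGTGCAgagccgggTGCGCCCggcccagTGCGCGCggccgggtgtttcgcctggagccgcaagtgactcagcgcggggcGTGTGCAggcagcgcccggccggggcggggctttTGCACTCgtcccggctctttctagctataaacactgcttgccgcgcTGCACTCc
SLC30A1: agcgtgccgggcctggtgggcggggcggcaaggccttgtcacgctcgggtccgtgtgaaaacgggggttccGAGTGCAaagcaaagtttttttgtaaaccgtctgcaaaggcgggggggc
MT2A held 7 matches in these 250 bases and SLC30A1 held 1 in the 120 bases shown. The motif is short, and 39.9% of tested genes and 29.4% of all 27305 promoters of that length held at least 1 match.

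Few other genes of metal handling could be set beside these. Of the 15 genes listed, 5 passed the filter, 3 with a higher difference, 1 with a lower one, and a median of 0.29. MTF1 itself had 0.18, 0.17, 0.30 and -0.07 (difference 0.29 ± 0.118, Wald test, adjusted p = 0.0283), a call that did not hold without SK-N-FI (0.24). SLC39A10, a zinc importer, went the other way with -1.18, 0.08, 0.01 and 0.46: it was called lower in LAN5 and higher in SK-N-BE(2) in the authors' deposited tables. Its difference was -0.82 ± 0.08 (Wald test, adjusted p = 2.59e-23) and -0.41 without LAN5.

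The genes that stood farthest from SK-N-BE(2) in every sensitive line belonged mostly to the integrated stress response. The ranking was by the smallest distance of any sensitive line from SK-N-BE(2), and after MT2A came PPP1R15A, STC2, SLC7A11, DDIT4, TRIB3, DDIT3, CREBRF, SLC30A1 and SLC3A2. PPP1R15A (chromosome 19, 48872392 to 48876057) encodes GADD34, the phosphatase subunit that reverses eIF2-alpha phosphorylation, and had 3.38, 2.70, 3.34 and -0.21. DDIT3 (chromosome 12, 57516588 to 57521737), which encodes CHOP, had 2.83, 3.67, 2.32 and -0.07. Both rose in each sensitive line and neither passed the authors' test in SK-N-BE(2), a pattern that the ranking selects for. The differences were 3.35 ± 0.147 for PPP1R15A (Wald test, adjusted p = 1.80e-112) and 3.01 ± 0.179 for DDIT3 (adjusted p = 1.51e-61).

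SLC7A11 (chromosome 4, 138164097 to 138242349) and SLC3A2 (chromosome 11, 62856102 to 62888875) encode the light and heavy chains of the cystine and glutamate exchanger. SLC7A11 had 5.57, 3.58, 2.70 and -0.03, a rise of 47.5-fold in LAN5, 12-fold in IMR5 and 6.5-fold in SK-N-FI against a factor of 0.977 in SK-N-BE(2). The heavy chain gene followed with 2.10, 1.83, 2.58 and -0.17. The differences were 3.98 ± 0.104 and 2.34 ± 0.0873, with 95% intervals of 3.78 to 4.19 and 2.17 to 2.51. TRIB3, a pseudokinase gene induced by CHOP, had 4.35, 5.15, 2.42 and -0.19, and STC2, a secreted glycoprotein gene, had 5.13, 2.81, 3.52 and -0.08. DDIT4, which encodes the mTORC1 inhibitor REDD1, had 3.52, 2.60, 3.30 and -0.03, and CREBRF, a regulator of the unfolded protein response, had 2.17, 2.64, 2.94 and -0.10. In these 4 genes the lowest sensitive effect was 2.17 and SK-N-BE(2) lay between -0.19 and -0.03, a distance that the ranking selects for.

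As a group, 32 of 40 listed ATF4 and CHOP targets passed the filter, and 29 were called higher (90.6%, against 26.4% of all tested genes) and 1 lower. Their median difference was 1.38, against -0.04 over all tested genes, and 23 were higher by at least 1. All 29 had the 3 sensitive lines above SK-N-BE(2), and 25 were still called with the random-effects mean. In the authors' deposited tables, of the 32 genes, 29, 29 and 28 were called higher in the sensitive lines and none in SK-N-BE(2), where effects ran from -0.27 to 0.30. ALDH18A1, an enzyme gene of proline synthesis, was the lower one, with -1.35, -0.37, -0.04 and 0.10. Its difference was -0.69 ± 0.0674 (Wald test, adjusted p = 5.35e-23), -0.31 without LAN5, and not called with the random-effects mean. CHOP is the product of a gene on this list, and members were listed with earlier results of these data known, so the count describes the list and does not test it.

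**Figure D2:**
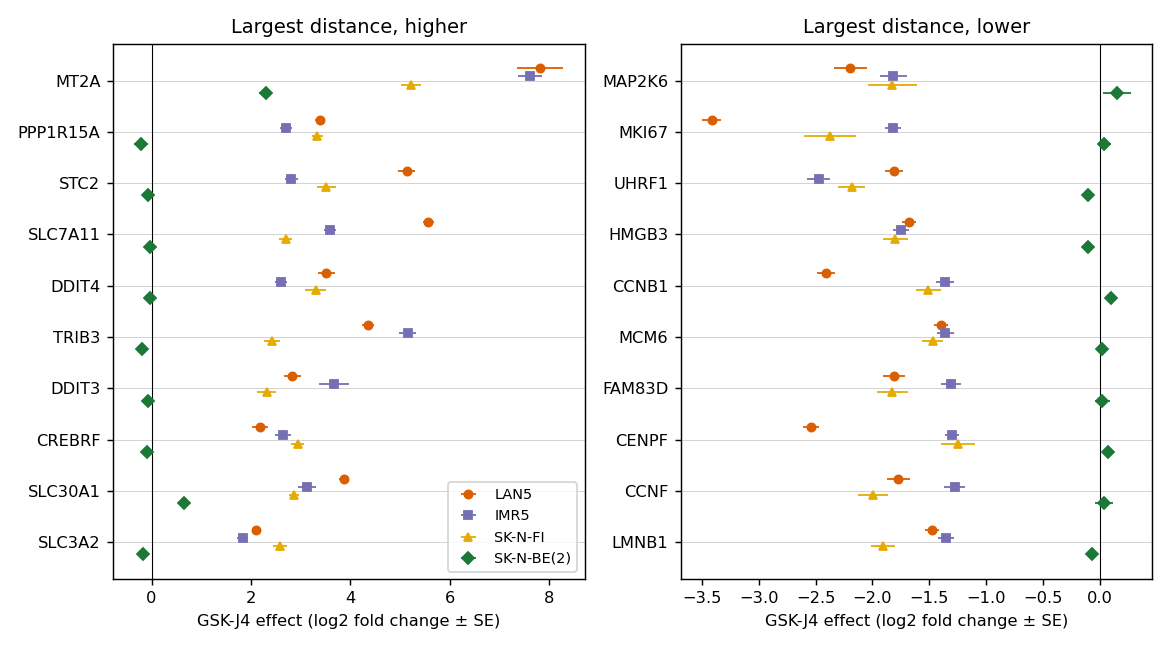
Points are the GSK-J4 effects of each line (log2 fold change ± standard error) for the 10 genes with the largest smallest distance above SK-N-BE(2) (left) and below it (right). Left, SK-N-BE(2) lies near 0 except for MT2A and SLC30A1; right, its effects lie between -0.10 and 0.15 while every sensitive line lies at -1.25 or lower.

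Below SK-N-BE(2), the farthest genes were MAP2K6, MKI67, UHRF1, HMGB3, CCNB1, MCM6, FAM83D, CENPF, CCNF and LMNB1, most of them genes of dividing cells. MKI67 (chromosome 10, 128096659 to 128126385), the gene of the proliferation antigen Ki-67, had -3.41, -1.82, -2.37 and 0.04 (difference -2.58 ± 0.103, Wald test, adjusted p = 5.04e-134). UHRF1 (chromosome 19, 4903080 to 4962154), which brings the maintenance DNA methyltransferase to replicating DNA, had -1.81, -2.47, -2.18 and -0.10 (difference -2.06 ± 0.0783, adjusted p = 1.34e-148 in the Wald test). HMGB3, a chromatin protein gene, had -1.68, -1.75, -1.80 and -0.10 and MCM6, a subunit of the replicative helicase, -1.40, -1.36, -1.47 and 0.02. For HMGB3, MCM6 and MAP2K6 the spread among the sensitive lines did not pass Cochran's Q test, with adjusted p of 0.618, 0.68 and 0.14. MAP2K6, a kinase of the p38 pathway, had -2.19, -1.82, -1.82 and 0.15, and LMNB1, the lamin B1 gene, -1.47, -1.35, -1.91 and -0.07. Every gene of the 10 fell in all 3 sensitive lines, and none passed the test in SK-N-BE(2), in the authors' deposited tables. The ranking selects for that pattern, and only 2.20% of all tested genes passed the test in SK-N-BE(2).

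Replication and mitosis genes were lower in the sensitive lines. Of 50 listed genes of DNA replication and G1/S, 49 passed the filter, and 45 were called lower (91.8%, against 32.7% of all tested genes) and 1 higher, with a median difference of -0.72. Of 55 genes of G2/M and mitosis, all passed the filter, and 50 were called lower (90.9%) and 1 higher, with a median of -0.89. The median effects of the G1/S genes were -0.61, -0.92, -0.75 and -0.01 by line, and those of the G2/M genes -1.18, -0.66, -0.92 and 0.02. With the random-effects mean 33 and 40 of them were called lower. In bulk RNA, fewer cycling cells and less RNA of these genes per cell cannot be told apart.

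Among the replication genes UHRF1 and MCM6 led, followed by MCM5 with -1.21, -1.70, -1.44 and -0.12 (difference -1.33 ± 0.0777) and GINS2 with -1.62, -1.58, -0.71 and 0.02 (difference -1.32 ± 0.107). MCM5 and GINS2 encode parts of the helicase that unwinds DNA. CDT1, a licensing factor gene, was the exception: it had -0.20, 0.18, 0.83 and -0.01 (difference 0.28 ± 0.103, Wald test, adjusted p = 0.0136), which was -0.00168 without SK-N-FI and not called with the random-effects mean. Among the mitotic genes KIF20A, a kinesin gene of cytokinesis, had -3.37, -0.94, -2.09 and 0.16, CENPA, the centromeric histone gene, -3.30, -0.65, -2.002 and 0.08 and the kinase gene PLK1 -3.12, -1.01, -1.55 and 0.05. Their differences were -2.30 ± 0.077, -2.06 ± 0.118 and -1.94 ± 0.0936. In each of the 3, LAN5 was lowest and IMR5 the nearest to SK-N-BE(2). SKA1, a kinetochore gene, had 0.91, 0.56, 0.38 and -0.19 and was higher by 0.81 ± 0.141 (Wald test, adjusted p = 5.57e-08).

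Genes of mitosis often carry a cell cycle homology region, TTTGAA, near their start, and genes of G1/S an E2F site, here TTTCCCGC or TTTGGCGC; these motifs mark the repression or activation of the 2 groups through the cell cycle. Both were searched on both strands of the same 300-base windows. The leading genes that hold a match are shown from RefSeq (GRCh38.p14), 120 bases before the start or around the matches, with matches in capitals. MKI67 is chr10:128126424-128126543 (minus), CENPA chr2:26785936-26786055 (plus), PLK1 chr16:23678769-23678888 (plus), UHRF1 chr19:4909381-4909500 (plus), MCM6 chr2:135876496-135876615 (minus) and GINS2 chr16:85688955-85689074 (minus). The starts are again those of RefSeq, and the UHRF1 stretch lies inside the GENCODE coordinates given above for that gene.
MKI67: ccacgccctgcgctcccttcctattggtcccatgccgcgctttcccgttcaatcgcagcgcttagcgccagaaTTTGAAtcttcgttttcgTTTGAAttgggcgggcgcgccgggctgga
CENPA: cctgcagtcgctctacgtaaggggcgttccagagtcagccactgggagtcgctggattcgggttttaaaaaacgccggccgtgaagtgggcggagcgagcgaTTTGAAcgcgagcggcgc
PLK1: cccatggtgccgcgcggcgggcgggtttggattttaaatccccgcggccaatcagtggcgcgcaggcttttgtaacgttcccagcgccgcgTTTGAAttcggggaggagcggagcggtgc
UHRF1: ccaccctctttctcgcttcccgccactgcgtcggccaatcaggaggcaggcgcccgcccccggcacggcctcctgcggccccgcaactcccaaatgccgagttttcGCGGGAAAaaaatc
MCM6: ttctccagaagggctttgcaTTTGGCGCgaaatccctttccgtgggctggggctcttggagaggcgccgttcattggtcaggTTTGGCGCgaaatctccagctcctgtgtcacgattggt
GINS2: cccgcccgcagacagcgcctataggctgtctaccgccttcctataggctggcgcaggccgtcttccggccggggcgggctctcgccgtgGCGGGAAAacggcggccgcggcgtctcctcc
TTTGAA was found for 31 of the 43 called G2/M genes with a promoter (72.1%), against 9.34% of tested genes, 15.4% of all promoters and 26.0% of genes lower by at least 1. It was found for 1 of the 37 called G1/S genes. The E2F letters were found for 19 of those 37 genes (51.4%), against 4.19% of tested genes, 2.31% of all promoters and 8.94% of genes lower by at least 1, and for 2 of the 43 G2/M genes. The motif of ATF4 and CHOP pairs, TGATGNAA, was held by 5 of 23 called ATF4 and CHOP targets (21.7%), against 1.40% of tested genes, 3.67% of all promoters and 5.68% of genes higher by at least 1. A match is a run of letters and not a shown binding site.

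Genes that charge tRNAs were partly higher. All 20 cytosolic aminoacyl-tRNA synthetase genes listed passed the filter, with 11 called higher, 4 lower and a median of 0.33. SARS1, for serine, had 1.43, 1.5, 0.97 and -0.08 (difference 1.38 ± 0.0615, Wald test, adjusted p = 4.83e-108), and CARS1, for cysteine, 1.65, 1.31, 0.86 and -0.09 (difference 1.36 ± 0.0873). GARS1, for glycine, had 1.43, 0.96, 0.78 and -0.04 (difference 1.10 ± 0.0626). WARS1, for tryptophan, had 2.18, 1.17, 0.42 and -0.04, with a difference of 1.30 ± 0.0742 that was 0.84 without LAN5. These 4 rose in each sensitive line and did not pass the test in SK-N-BE(2). FARSB and VARS1, for phenylalanine and valine, were lower with -0.81, 0.11, -0.91 and -0.02 and -0.73, 0.10, -0.47 and 0.07. Their differences were -0.51 ± 0.0662 and -0.44 ± 0.0683, -0.32 without SK-N-FI for FARSB and -0.26 without LAN5 for VARS1, or -0.83 and -0.68 without IMR5. With the random-effects mean, 6 of the 20 were called higher and none lower.

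Of 24 listed genes of the unfolded protein response 22 passed the filter, with 8 called higher and 6 lower (36.4% and 27.3%, against 26.4% and 32.7% of all tested genes), and with a median of 0.06 that turned to -0.04 without LAN5. Among the higher ones, ERN1, which encodes the endoplasmic reticulum stress sensor IRE1, had 1.54, 3.50, 1.03 and -0.18, and its target XBP1 had 1.33, 1.72, 0.98 and -0.07. EDEM1 and HERPUD1, which act in degradation of misfolded proteins, had 1.91, 2.65, 0.99 and -0.13 and 1.84, 3.20, 0.87 and 0.04. The differences were 2.21 ± 0.18 for ERN1 (1.47 without IMR5), 1.41 ± 0.0807 for XBP1, 1.98 ± 0.125 for EDEM1 and 1.93 ± 0.112 for HERPUD1. The lower ones with the largest differences were MANF, a folding factor gene, with -0.91, -0.43, -0.81 and 0.07 (difference -0.78 ± 0.104, Wald test, adjusted p = 4.10e-13) and the disulfide isomerase gene PDIA4 with -0.66, -0.42, -0.67 and 0.00 (difference -0.59 ± 0.0689, adjusted p = 2.49e-16 in the Wald test). All 6 named genes were called in the same direction in each sensitive line and not in SK-N-BE(2), in the authors' deposited tables.

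Cytosolic heat shock genes depended on the line. Of 18 tested, 6 were called higher and 10 lower, with a median of -0.22 that was 0.02 without IMR5, and with the random-effects mean 1 was called in each direction. The chaperone genes HSPA8, HSP90AA1 and DNAJA1 had -0.15, -1.86, -0.51 and 0.02, -0.10, -1.33, -0.54 and 0.02 and -0.01, -1.52, -0.39 and -0.02. These 3 fell in IMR5 and SK-N-FI and were not called in LAN5, in the authors' deposited tables. Their differences of -0.87 ± 0.0605, -0.68 ± 0.068 and -0.62 ± 0.0641 shrank to -0.36, -0.35 and -0.18 without IMR5, and that of DNAJA1 was -0.94 without LAN5. HSPA4 had -0.13, -0.76, -0.61 and 0.10 (difference -0.60 ± 0.0609). BAG3, a co-chaperone gene, had 3.08, -0.06, 0.45 and 0.06; its difference of 1.09 ± 0.111 was 0.13 without LAN5, no longer called, and 1.70 without IMR5. HSF1, the master factor of the heat shock response, had 0.38, 0.71, 1.15 and -0.03 (difference 0.78 ± 0.112, Wald test, adjusted p = 3.05e-11) and rose in each sensitive line.

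Targets of NRF2, the factor that switches on antioxidant and detoxification genes, were mostly higher in LAN5 and SK-N-FI but not in IMR5, with the highest median effect in LAN5. Of 28 listed genes 23 passed the filter, 15 called higher and 2 lower, with a median of 0.54, and 4 and 1 were called with the random-effects mean. Median effects by line were 0.99, -0.18, 0.66 and 0.02. In the authors' deposited tables, 21, 9 and 15 of the 23 were called higher in the sensitive lines and 2, 11 and 3 lower. HMOX1 (chromosome 22, 35380361 to 35394214), which encodes the haem-degrading enzyme, had 9.46, -0.97, 2.38 and -0.01: it rose in LAN5 and SK-N-FI and fell in IMR5 in the authors' deposited tables. Its difference of 3.64 ± 0.214 was 0.72 without LAN5 and 5.93 without IMR5. NQO1, a quinone reductase gene, had 4.49, 0.05, 1.06 and 0.01, and its difference of 1.86 ± 0.0978 was 0.54 without LAN5. Neither gene was called with the random-effects mean. SQSTM1, the autophagy receptor p62, rose in every sensitive line, with 2.39, 1.17, 0.91 and 0.04 (difference 1.45 ± 0.0866, Wald test, adjusted p = 4.97e-61). PRDX1, a peroxidase gene, had 0.47, -1.36, -0.58 and 0.14 (difference -0.63 ± 0.0759, -1.11 without LAN5 and -0.19, not called, without IMR5). ABCC4, an efflux pump gene, had -0.33, -0.51, -0.37 and 0.18 (difference -0.59 ± 0.0983).

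Iron handling followed in part. Of 11 tested genes 8 were called higher and 1 lower, with a median of 0.47, and 3 and 1 were called with the random-effects mean. The ferritin genes FTH1 and FTL, which store iron, had 1.60, 1.47, -0.04 and -0.12 and 0.94, 0.58, 1.29 and -0.12, and the haem transporter gene SLC48A1 had 2.17, 1.76, -0.01 and -0.05. FTH1 and SLC48A1 rose in LAN5 and IMR5 and were not called in SK-N-FI. The differences were 1.13 ± 0.224, 1.05 ± 0.127 and 1.35 ± 0.132, and of these FTL was also called with the random-effects mean. IREB2, the iron regulatory protein gene, had -0.11, -0.47, -0.69 and 0.06 (difference -0.49 ± 0.071, Wald test, adjusted p = 5.13e-11).

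Among 28 p53 targets 17 passed the filter, 14 higher, 1 lower, median 0.82, and 7 were called higher with the random-effects mean. The median effects by line were 1.39, 1.16, 0.10 and 0.00, so SK-N-FI lay near SK-N-BE(2). SESN2, a stress-induced inhibitor of mTORC1 that ATF4 also induces, had 3.22, 2.20, 1.57 and -0.13, and GADD45A, a growth arrest gene, 1.83, 2.21, 2.35 and -0.09. Both rose in the 3 sensitive lines, with differences of 2.46 ± 0.143 and 2.22 ± 0.109. ZMAT3 had 1.72, 2.55, 0.33 and -0.13 (difference 1.66 ± 0.104). CDKN1A (chromosome 6, 36676460 to 36687339), which encodes the kinase inhibitor p21, had 3.47, 2.18, 0.12 and 0.33 and was called in LAN5 and IMR5 only, in the authors' deposited tables. Its difference of 1.59 ± 0.164 was 0.82 without LAN5, 2.49 without SK-N-FI, and not called with the random-effects mean. TP53I3 had -0.09, -0.64, -1.07 and -0.31 (difference -0.29 ± 0.104, Wald test, adjusted p = 0.00989), -0.55 without LAN5 and -0.06, not called, without SK-N-FI.

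Pro-apoptotic genes of the BCL-2 family gave 4 higher, 2 lower and 2 uncalled of 8 tested, with a median of 0.45. BAK1, a pore-forming effector, had 1.07, 0.61, 0.41 and -0.16 (difference 0.86 ± 0.146, Wald test, adjusted p = 1.78e-08), and PMAIP1, which encodes NOXA, 1.30, 0.83, 0.26 and -0.02 (difference 0.82 ± 0.107). The mitophagy receptors BNIP3 and BNIP3L had 1.22, -0.93, 2.14 and 0.01 and 0.98, 0.25, 0.93 and 0.07. BNIP3 rose in LAN5 and SK-N-FI and fell in IMR5, and its difference of 0.80 ± 0.0892 was 1.67 without IMR5 and 0.13, not called, without SK-N-FI; that of BNIP3L was 0.65 ± 0.0771. BCL2L11 (BIM) had -0.65, -0.79, 0.23 and -0.07 and BID -0.32, -0.77, 0.51 and 0.11. Their differences of -0.34 ± 0.0937 and -0.31 ± 0.102 were not called without LAN5 (-0.21 and -0.24) or without IMR5 (-0.15 and -0.02), and were -0.65 and -0.66 without SK-N-FI. BBC3, which encodes PUMA, fell short of the filter with a mean of 42.6 in the authors' deposited SK-N-BE(2) table and was not compared. Of 4 survival genes of the family that were tested, 1 was called higher and 1 lower.

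Genes of the hypoxia response were mostly higher in LAN5 and SK-N-FI but not in IMR5, with the highest median effect in SK-N-FI. Of 33 listed 21 passed the filter, 15 higher, 2 lower, median 0.65, and 7 were called higher with the random-effects mean. Median effects were 0.58, 0.02, 1.10 and 0.01. In the authors' deposited tables, 16, 9 and 20 of the 21 were called higher in the sensitive lines and 3, 10 and 0 lower. DDIT4, given above, led the list. VEGFA, the vascular growth factor gene, had 1.05, 2.11, 1.78 and -0.12 (difference 1.76 ± 0.0774, Wald test, adjusted p = 2.00e-112), and the collagen hydroxylase gene P4HA2 1.79, 1.26, 1.26 and 0.11 (difference 1.33 ± 0.162); both rose in each sensitive line. PFKFB3, a glycolysis-promoting kinase gene, had 0.79, -1.03, 5.15 and 0.01, and its difference of 1.63 ± 0.109 was 2.97 without IMR5 and turned to -0.12 without SK-N-FI. HILPDA, a lipid droplet gene, had -0.94, -0.79, 0.24 and -0.02 (difference -0.47 ± 0.144), which was not called without LAN5 (-0.25) or IMR5 (-0.33) and was -0.84 without SK-N-FI. The glucose transporter gene SLC2A1 had -0.89, -1.41, 0.96 and -0.13 (difference -0.32 ± 0.101): -0.09, not called, without LAN5, 0.17 without IMR5 and -1.02 without SK-N-FI.

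Glycolysis genes differed by line. Of 19 tested, 6 were called higher and 8 lower, with a median of 0.00, which was 0.23 without IMR5 and -0.31 without SK-N-FI. Median effects were 0.00, -0.51, 0.69 and 0.07. The lactate dehydrogenase genes LDHA and LDHB had -0.71, -1.50, 0.92 and 0.11 and -0.57, -0.43, -0.13 and 0.07, the lactate carrier gene SLC16A1 -0.49, -0.69, 0.15 and 0.10, and the isomerase gene TPI1 -0.28, -1.26, 0.67 and 0.07. In the authors' deposited tables LDHA and TPI1 fell in LAN5 and IMR5 and rose in SK-N-FI. Their differences of -0.54 ± 0.0814 and -0.36 ± 0.0716 were -1.21 and -0.84 without SK-N-FI, and 0.00 and 0.12 without IMR5. The differences of LDHB and SLC16A1 were -0.45 ± 0.0682 and -0.45 ± 0.0599, the latter -0.28 without IMR5 and -0.70 without SK-N-FI. ENO2, the neuronal enolase gene, stood apart: it had 1.03, 1.16, 1.10 and 0.07, with no spread among the sensitive lines past Cochran's Q test (adjusted p = 0.57) and a difference of 1.03 ± 0.075 (Wald test, adjusted p = 2.54e-41). HK2, a hexokinase gene, had 0.67, 0.06, 1.05 and 0.02 (difference 0.58 ± 0.0831, 0.35 without SK-N-FI).

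**Figure D3:**
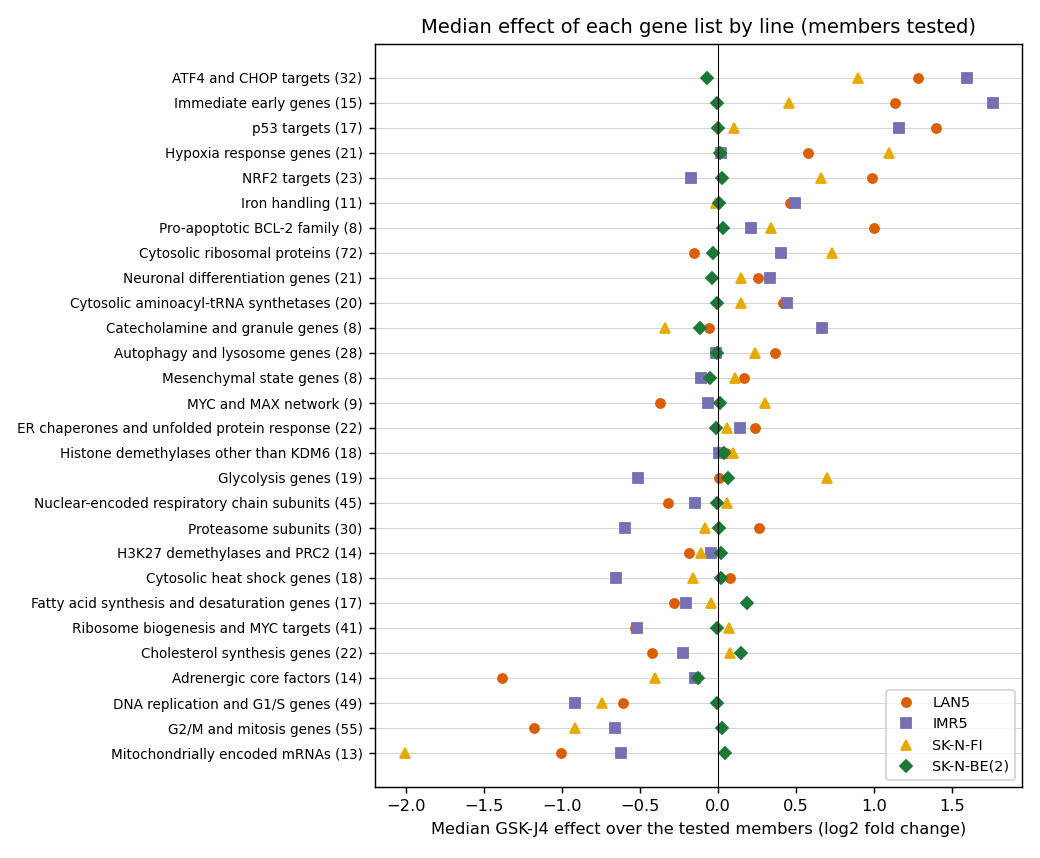
For each gene list, with the number of tested members in brackets, the points give the median GSK-J4 effect (log2 fold change) in each line. The lists have at least 8 tested members; among them the SK-N-BE(2) median runs from -0.13 (adrenergic factors) to 0.18 (fatty acid synthesis), whereas the sensitive lines agree in direction for the ATF4 and CHOP targets, the cell cycle lists and the mitochondrial mRNAs and separate for glycolysis, NRF2 targets and ribosomal proteins.

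Genes of lipid synthesis were lower in the sensitive lines and, in part, higher in SK-N-BE(2). Of 22 tested genes of cholesterol synthesis 16 were called lower and 3 higher, with a median difference of -0.41; of 17 genes of fatty acid synthesis and desaturation 11 were called lower and 2 higher, with a median of -0.23. In the authors' deposited SK-N-BE(2) table, 7 of the 22 and 9 of the 17 were called higher and none lower, against 1.32% and 0.881% of all tested genes in those directions. The effects in SK-N-BE(2) were small, from -0.01 to 0.32 and from 0.02 to 0.36. The median effects by line were -0.43, -0.23, 0.08 and 0.15 for cholesterol and -0.29, -0.21, -0.05 and 0.18 for fatty acids. With the random-effects mean 6 and 5 were called lower and 1 and 1 higher. Were the sign of SK-N-BE(2) the reverse of the reading used here, 6 and 7 would be lower, 4 and 6 higher, and the cholesterol median would be 0.01.

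Most enzymes of these pathways are driven by the sterol-sensing SREBP factors. ACAT2, at the entry of the cholesterol pathway, had -0.68, -1.08, -0.72 and 0.21. FDPS, for farnesyl diphosphate, had -0.55, -0.64, -0.85 and 0.27 and SQLE, the squalene epoxidase gene, -0.62, -0.75, -0.32 and 0.17. These 3 fell in each sensitive line; in the authors' deposited SK-N-BE(2) table, adjusted p was 8.61e-04 for FDPS, 0.0266 for SQLE and 0.0535 for ACAT2. The differences were -1.04 ± 0.0842 for ACAT2 (Wald test, adjusted p = 3.75e-33), -0.95 ± 0.0841 for FDPS and -0.73 ± 0.0697 for SQLE. STARD4, a sterol carrier gene, had 0.84, 1.54, 0.20 and 0.15, and SREBF2, the gene of SREBP-2, 0.39, 1.03, 0.74 and 0.13. These 2 were higher by 0.72 ± 0.068 (0.37 without IMR5) and 0.59 ± 0.0665.

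Of the fatty acid genes, SCD, the delta-9 desaturase gene, had -1.04, -1.05, 0.10 and 0.34, with -1.04 ± 0.0576 in LAN5 and 0.34 ± 0.0375 in SK-N-BE(2); the authors' deposited tables call it lower in LAN5 and IMR5, higher in SK-N-BE(2) and neither in SK-N-FI. FADS2, another desaturase gene, had -0.57, -1.12, -0.67 and 0.20. FASN, the fatty acid synthase gene, and ACLY, which makes cytosolic acetyl-CoA, had -0.80, -0.79, -0.46 and 0.26 and -0.47, -0.88, -0.55 and 0.21. FADS2, FASN and ACLY fell in all sensitive lines and rose in SK-N-BE(2). The authors' deposited SK-N-BE(2) table gives them adjusted p of 9.54e-04, 0.00145 and 1.43e-06. Their effects in all 3 sensitive lines lay below that in SK-N-BE(2), and 46.2% of all tested genes had the 3 lines on 1 side. Differences were -0.998 ± 0.0595 for SCD (Wald test, adjusted p = 4.97e-61), -0.99 ± 0.064, -0.94 ± 0.0881 and -0.85 ± 0.0622 for the others. FADS3 and ME1, a malic enzyme gene that supplies NADPH, were higher, with 2.82, 2.23, 0.87 and 0.02 and 2.22, 0.93, 0.66 and 0.02 (differences 1.96 ± 0.19 and 1.25 ± 0.0994, the latter 0.77 without LAN5).

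**Figure D4:**
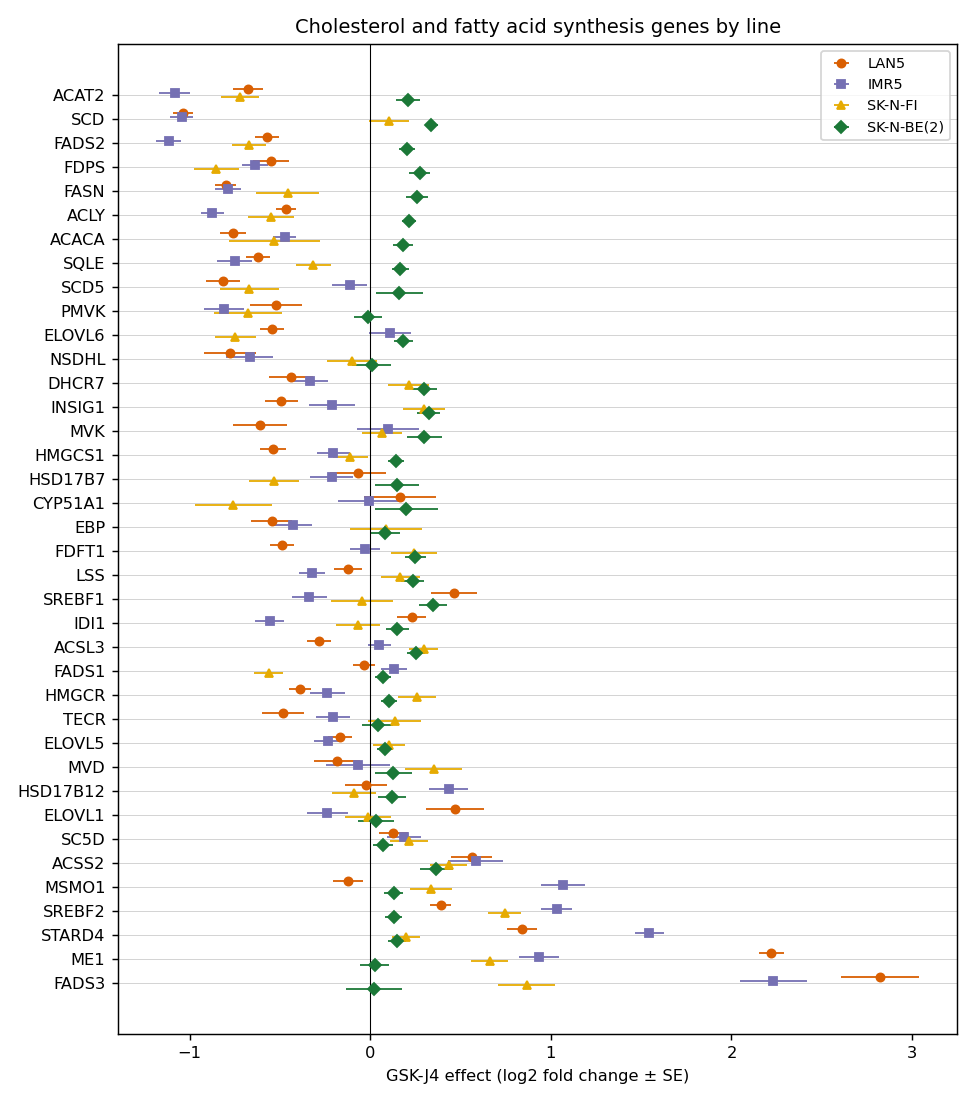
Points are the GSK-J4 effects (log2 fold change ± standard error) of each line for tested genes of cholesterol and fatty acid synthesis, ordered by their difference of effect. SK-N-BE(2) lies at or above 0 for all but PMVK (-0.01), and for ACAT2, FDPS, FADS2, FASN and ACLY every sensitive line lies below 0.

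Genes called in SK-N-BE(2) with a sensitive mean of opposite sign numbered 63 higher and 36 lower there, or 43 and 55 if the sign of that table were reversed. Ranked by the size of the difference, the first 6 of the former included KIF20A, CNTN1, FAM78B, LEPR and SCD. CNTN1, a neuronal adhesion gene, had -1.50, 0.00, -0.87 and 0.29 and LEPR, the leptin receptor gene, -2.12, -0.26, 0.00 and 0.25. Their differences were -1.08 ± 0.0817 and -1.04 ± 0.108, that of LEPR being -0.37 without LAN5. FAM78B had -0.52, -0.64, -0.76 and 0.41, with a difference of -1.05 ± 0.125 (Wald test, adjusted p = 6.20e-16). KIF20A was called higher in the authors' deposited SK-N-BE(2) table with an adjusted p of 0.0412, near the threshold.

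The genes called lower in SK-N-BE(2) were led by EGR1, VGF, SAMD11, PLP2, SNHG8 and GAS5. EGR1, an immediate early factor gene, had 2.85, 4.90, 0.25 and -0.57, and VGF, which encodes a secreted neuropeptide precursor, 3.17, 4.63, 0.81 and -0.35. Their differences were 3.23 ± 0.207 (2.12 without IMR5) and 3.22 ± 0.164 (Wald test, adjusted p = 6.92e-53 and 3.67e-83). SAMD11 had 0.69, -0.37, 1.17 and -1.20, the largest fall in SK-N-BE(2) among the 6; its difference of 1.70 ± 0.162 would turn to -0.70 if the sign of that table were reversed. GAS5 and SNHG8, hosts of small nucleolar RNAs, had 0.62, 1.02, 1.44 and -0.15 and 0.44, 1.03, 1.64 and -0.29, with differences of 1.18 ± 0.0757 and 1.33 ± 0.118. PLP2 had 0.31, 2.42, 0.76 and -0.22 (difference 1.38 ± 0.118, 0.75 without IMR5). In the authors' deposited SK-N-BE(2) table, the adjusted p was 0.0412 for GAS5 and 0.0345 for PLP2, both near the threshold.

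Of 72 tested cytosolic ribosomal protein genes 59 were called higher and none lower, with a median difference of 0.35 and no member above 0.69. Median effects were -0.15, 0.40, 0.73 and -0.04, so the LAN5 median lay below that of SK-N-BE(2); of the 72, 20 were called lower and 5 higher in the authors' deposited LAN5 table. Without SK-N-FI 26 were called higher and 3 lower, and with the random-effects mean 6 were called higher. RPS19 had 0.59, 0.55, 0.79 and -0.05, RPS13 0.30, 0.40, 0.98 and -0.10, RPL37 0.01, 0.46, 0.94 and -0.16 and RPS28 -0.23, 0.57, 0.95 and -0.23. The differences were 0.69 ± 0.0887 for RPS19, 0.66 ± 0.0813 for RPS13, 0.63 ± 0.0833 for RPL37 (0.40 without SK-N-FI) and 0.66 ± 0.131 for RPS28 (0.40 without SK-N-FI). Ribosomal proteins have many processed pseudogenes, so reads can be split between copies.

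Of 41 tested genes of ribosome biogenesis, many of them MYC targets, 27 were called lower and 1 higher, with a median of -0.28. Median effects were -0.53, -0.52, 0.07 and -0.01, and without SK-N-FI 38 were called lower. UTP20, of the small subunit processome, had -1.52, -1.83, -0.96 and 0.00, MYBBP1A -1.33, -0.98, -1.03 and -0.09, RRS1 -1.37, -1.06, -0.64 and -0.04 and POLR1A, the largest subunit of RNA polymerase I, -0.56, -1.05, -1.12 and 0.01. All 4 fell in each sensitive line, with differences of -1.44 ± 0.0987, -1.02 ± 0.0964, -0.98 ± 0.121 and -0.92 ± 0.103. ODC1, the first enzyme of polyamine synthesis, had 0.26, 0.04, 0.81 and -0.10 (difference 0.47 ± 0.0732, 0.25 without SK-N-FI). With the random-effects mean 13 were called lower and none higher.

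The mRNAs encoded by mitochondrial DNA were lower in the sensitive lines. Of 13 tested, 11 were called lower, 8 of them by at least 1, none higher, with a median difference of -1.21 and median effects of -1.01, -0.62, -2.01 and 0.04. MT-CO2 and MT-CO3, subunits of cytochrome c oxidase, had -1.01, -1.26, -2.53 and 0.08 and -1.57, -0.77, -2.55 and -0.02. MT-ND5 and MT-ND6, subunits of complex I, had -1.78, -0.63, -2.43 and 0.04 and -2.38, -0.62, -2.01 and -0.04. All 4 fell in each sensitive line and the differences were -1.67 ± 0.0938, -1.61 ± 0.0873, -1.65 ± 0.0836 and -1.63 ± 0.113. With the random-effects mean 7 of the 13 were called lower. Of 45 nuclear genes of the respiratory chain tested, 15 were called lower and 4 higher (33.3% and 8.89%, against 32.7% and 26.4% of all tested genes), with a median of -0.12. NDUFB10 had -1.14, -0.50, -0.15 and -0.04 (difference -0.55 ± 0.0932, -0.28 without LAN5), NDUFA8 -0.68, -0.48, -0.21 and 0.01 (-0.46 ± 0.114) and ATP5PD -0.70, -0.27, -0.39 and -0.05 (-0.40 ± 0.0953). ATP5PO, with -0.38 ± 0.158, was not called without LAN5 (-0.25). SDHD and COX7A2 were higher by 0.40 ± 0.109 and 0.23 ± 0.0938, the latter 0.13, not called, without SK-N-FI.

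Factors of the adrenergic core circuit, which hold neuroblastoma cells in their lineage, were mostly lower. Of 19 listed 14 passed the filter, 10 lower, 2 higher, median -0.64, and 3 and 1 were called with the random-effects mean. The median effects were -1.38, -0.15, -0.40 and -0.13. In the authors' deposited SK-N-BE(2) table, 5 of the 14 were called lower and none higher, against 0.881% and 1.32% of all tested genes. These directions rest on the sign read for that line. Among the 5 were GATA3 (adjusted p of 0.00100 in that table) and TBX2 (0.0440, near the threshold). MYCN (chromosome 2, 15940564 to 15947007) had -1.91, -1.08, -0.32 and 0.11 (difference -1.22 ± 0.0878, Wald test, adjusted p = 7.74e-42); it fell in LAN5 and IMR5, where it is amplified, and was not called in SK-N-FI or in SK-N-BE(2), where it is amplified too. HAND1 had -1.69, -1.27, -1.10 and -0.20 and ISL1 -1.51, -0.59, -0.41 and -0.11 (differences -1.15 ± 0.11 and -0.73 ± 0.079, -0.39 without LAN5 for ISL1). TBX2 was higher, with 0.88, 0.12, 0.43 and -0.23 (difference 0.71 ± 0.0878). GATA3 had -0.82, 0.23, 0.86 and -0.20 (difference 0.29 ± 0.0809), a sign that turned to -0.10 without SK-N-FI and to -0.00692 with inverse-variance weights; it was 0.74 without LAN5 and 0.22, not called, without IMR5.

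Catecholamine and granule genes gave 4 higher and 2 lower of 8 tested, with a median of 0.26 that turned to -0.19 without IMR5. In the authors' deposited SK-N-BE(2) table, 4 of the 8 were called lower and none higher, against 0.881% and 1.32% of all tested genes. These directions rest on the sign read for that line. VGF, described above, led, followed by SCG2, a granin gene, with 0.44, 2.60, 0.26 and 0.00 (difference 1.11 ± 0.0806, 0.36 without IMR5) and SCG3 with 0.23, 0.68, 0.30 and -0.03 (difference 0.43 ± 0.0709). GCH1, which makes the cofactor of TH, had -0.10, 2.57, -0.43 and 0.19; its difference of 0.49 ± 0.108 was 0.88 without LAN5, -0.46 without IMR5 and 1.04 without SK-N-FI. CHGA, the chromogranin A gene, fell in all 4 lines, by the reading of direction used here, with -0.59, -1.15, -1.06 and -0.20 (difference -0.73 ± 0.08, Wald test, adjusted p = 9.83e-19). With the sign of SK-N-BE(2) reversed, CHGA would rise there and its difference would be -1.14. MAOA had -1.10, 0.65, -0.25 and 0.36 (difference -0.60 ± 0.158), -0.16 and not called without LAN5 and -1.04 without IMR5.

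Neuronal differentiation genes were higher more often than lower, with 13 and 5 of 21 tested, a median of 0.34, and 4 and 1 called with the random-effects mean. NGFR, the low-affinity neurotrophin receptor gene, had 1.47, 4.49, -0.88 and -0.23, and its difference of 1.92 ± 0.142 was 0.52 without IMR5 and 3.20 without SK-N-FI. MAPT, the tau gene, had 0.57, 2.07, 0.41 and 0.00 (difference 1.02 ± 0.0753, 0.49 without IMR5), and SNAP25, of the synaptic fusion complex, 0.77, -0.14, 1.29 and -0.08 (difference 0.72 ± 0.0868, 1.11 without IMR5 and 0.39 without SK-N-FI). ENO2 is also on this list. GFRA2, a receptor gene for GDNF family ligands, fell in all 4 lines, by the reading of direction used here, with -1.11, -1.02, -1.43 and -0.47 (difference -0.72 ± 0.152, Wald test, adjusted p = 7.85e-06). With the sign of SK-N-BE(2) reversed, GFRA2 would rise there and its difference would be -1.66. Its adjusted p in the authors' deposited SK-N-BE(2) table was 0.0448, near the threshold.

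All 15 tested immediate early and ERK feedback genes were called higher, with a median of 1.10, and the smallest difference among them was 0.43. Median effects were 1.13, 1.76, 0.45 and -0.01, and 8 of the 15 were called with the random-effects mean. After EGR1 came ATF3, a stress factor that ATF4 also induces, with 2.58, 3.28, 0.45 and -0.27 (difference 2.38 ± 0.153), and KLF10 with 1.81, 0.92, 1.52 and -0.20 (difference 1.62 ± 0.0962); both rose in each sensitive line. SPRY4, a feedback inhibitor of ERK signalling, had 1.25, 3.34, -0.05 and -0.01, and its difference of 1.52 ± 0.102 was 0.61 without IMR5 and 2.30 without SK-N-FI. SPRY4 rose in LAN5 and IMR5 in the authors' deposited tables and was not called for SK-N-FI.

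Both targets of the compound were higher in the sensitive lines. KDM6B (chromosome 17, 7839904 to 7854796) had 0.55, 1.18, 0.85 and -0.05 (difference 0.91 ± 0.0963, Wald test, adjusted p = 4.31e-20), and KDM6A (chromosome X, 44873177 to 45112602) 0.51, 0.42, 0.40 and -0.06 (difference 0.50 ± 0.113, adjusted p = 3.43e-05 in the Wald test). Both rose in each sensitive line. EZH2, the methyltransferase of the Polycomb complex PRC2, had -0.71, -0.24, -0.66 and -0.14 (difference -0.40 ± 0.0739), a call lost with the random-effects mean. Of the 14 tested genes of the KDM6 and PRC2 list, 5 were called higher and 7 lower, with a median of -0.17 and none called in SK-N-BE(2). The histone-binding subunits RBBP4 and RBBP7 had -0.55, -0.42, -0.52 and 0.01 and -0.32, -0.43, -0.51 and 0.09, and the accessory subunit PHF19 -0.76, -0.43, -0.79 and -0.06 (differences -0.51 ± 0.0583, -0.51 ± 0.0684 and -0.60 ± 0.0943). EPOP had -1.27, -0.56, -0.22 and 0.03 (difference -0.71 ± 0.121, -0.42 without LAN5). PHF1, another accessory subunit, was higher in each sensitive line with 1.11, 1.06, 1.33 and 0.01 (difference 1.15 ± 0.13, Wald test, adjusted p = 8.69e-18).

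Autophagy and lysosome genes were higher in 14 and lower in 2 of 28 tested, with a median of 0.25 and 5 called higher with the random-effects mean. OPTN, an autophagy receptor gene, had 2.02, 3.64, 1.48 and 0.25 (difference 2.13 ± 0.125, Wald test, adjusted p = 3.92e-63), MAP1LC3B, which encodes LC3B, 1.86, 0.61, 0.78 and -0.02 (difference 1.10 ± 0.0735, 0.71 without LAN5), and TFE3, a factor that drives lysosome genes, 1.57, 1.09, 0.57 and 0.05 (difference 1.03 ± 0.11). These 3 and SQSTM1 rose in each sensitive line. ATG2A and LAMP1 had 0.11, -0.87, -0.61 and -0.01 and 0.21, -0.62, -0.03 and 0.03. Their differences, -0.45 ± 0.166 and -0.17 ± 0.0742, were -0.73 and -0.35 without LAN5, and -0.24, not called, and 0.06 without IMR5; that of ATG2A was also not called without SK-N-FI (-0.37). Proteasome subunits gave 12 lower and none higher of 30 tested (40.0% lower, against 32.7% of all tested genes), but 8 higher and 2 lower without IMR5. Histone demethylases other than KDM6 gave 7 higher and 5 lower of 18, MYC and MAX network genes 4 and 4 of 9, mesenchymal genes 4 and 3 of 8, and interferon-stimulated genes 1 and 1 of 4; medians were 0.05, 0.06, 0.23 and 0.11.

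Few genes moved the same way everywhere. Read in the direction used here, the authors' deposited tables call 11 tested genes higher in all 4 lines and 18 lower. Both counts rest on the sign read for SK-N-BE(2), which was set by MT2A and SLC30A1. Ranked by their smallest effect, the first 6 included MT2A, SLC30A1, SMAD6, SLC6A2 and a gene known by its identifier ENSG00000278928 only. SMAD6, an inhibitor of BMP signalling, had -0.77, -1.35, -0.95 and -0.61; its difference of -0.41 ± 0.136 was -0.25, not called, without IMR5 and would turn to 0.13 under another solution for the shrinkage of SK-N-BE(2). SLC6A2, the noradrenaline transporter gene, had -1.41, -1.09, -0.48 and -0.74, and its difference of -0.25 ± 0.131 was not called (Wald test, adjusted p = 0.0823), with a 95% interval of -0.51 to 0.00; without SK-N-FI it was -0.51 and called. ENSG00000278928 had -1.45, -1.39, -0.87 and -0.82 and a difference of -0.42 ± 0.191 (Wald test, adjusted p = 0.0482), not called without LAN5 (-0.31) or IMR5 (-0.34). With the sign of SK-N-BE(2) reversed, the differences would be -1.64 for SMAD6, -1.73 for SLC6A2 and -2.06 for ENSG00000278928.

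The filter on the mean left a gradual edge. Just inside it were ASAP3 and C19orf44, with lowest means of 100.2 and 100.3 and differences of -0.22 and -0.62. Just outside were LINC01089 and ZNF765, with lowest means of 99.8 and 99.9 and differences of -0.35 and -0.65.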

How the data were processed

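Polyadenylated RNA from 24 libraries, 3 per group, was turned into 4 tables by the authors, 1 per line over 6 libraries; per the submitters' processing notes the tools were FastQC, STAR and DESeq2 (no versions) and the build hg38. The deposited baseMean is a signal, the mean of counts that the authors normalized with DESeq2 within 1 line; no values per library were used, so depth is unknown. The deposited log2 fold changes and their standard errors carry a normal prior that pulls them toward 0, while the Wald statistic is given as a score with the authors' p-value and adjusted p. The contrast direction, annotation and counting tool are nowhere given in the sources used here. No label says that libraries came from separate cultures, so p-values measure the spread between libraries, which may be technical.

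The direction was read from the data: BBC3, a gene known to rise with GSK-J4, in the sensitive lines, and MT2A and SLC30A1 in SK-N-BE(2). The SK-N-FI table was matched by the likeness of its short name, the other 3 names being those of the other lines. In the deposited SK-N-BE(2) table the score differed from fold change over error by more than 1e-04 for 19488 genes, with a median difference of 3.82e-04.

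The prior was removed per gene. Its standard deviation is 2 times the largest error of a table; of the 2 precisions that give a deposited error, the higher was taken from the mean upward where a running median of the error (501 genes) peaks, which is 134 in SK-N-BE(2) and under 5 in the other lines, and the lower below it. This leaves 193 genes between 100 and 134 in SK-N-BE(2). Differences were tested by a two-sided Wald test and the spread of the sensitive lines by Cochran's Q, both Benjamini-Hochberg adjusted over 8969 genes, in Python 3.11.15 (numpy 2.4.6, pandas 2.3.3, scipy 1.17.1, matplotlib 3.10.9), tested on simulated data. Of the 8969 Ensembl identifiers tested 8947 were matched to a symbol. Coordinates came from GENCODE release 29 and promoters from RefSeq.

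Genes and lists were chosen with earlier results of these data known. Named were the 10 genes per direction with the largest smallest distance of a sensitive line from SK-N-BE(2), up to 4 called members of a list in its main direction and 2 in the other, the 6 leading genes of each class by the authors' test in SK-N-BE(2), of those called in all 4 lines and of those with called effects of both signs among the sensitive lines, and the 2 nearest the filter on each side, besides KDM6A, KDM6B, EZH2, BBC3 and MYCN. Alternatives were filters on the mean of 10, 50 and 300, deposited values without prior removal, other settings of the prior, inverse-variance or random-effects weights, each sensitive line left out, centring, and the reversed sign of SK-N-BE(2); a SK-N-BE(2) effect taken from its statistic was added after seeing the data. Some genes that this rule names are not reported here.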

Additional observations from a re-analysis of the deposited data

Results flagged for a closer look

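The 6 genes below had called effects of both signs among the sensitive lines in the authors' deposited tables, and the spread between these lines passed Cochran's Q test for each. MAP1A, a microtubule-associated protein gene, rose in LAN5 and fell in IMR5 and SK-N-FI, with effects of 3.10, -1.10 and -0.90 against 0.10 in SK-N-BE(2), so its difference of 0.26 ± 0.102 averages opposite changes. ASS1, which encodes argininosuccinate synthase of arginine synthesis, had 4.64, 0.44 and -0.54, with a difference of 1.54 ± 0.0768.

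The other 4 genes belong to oxidative and protein stress. HMOX1 had 9.46, -0.97 and 2.38, the largest effect of any line among the 6 genes being that of LAN5. GCLM, a subunit of the first enzyme of glutathione synthesis, had 3.14, -0.86 and 0.75 and a difference of 1.03 ± 0.0906. The heat shock genes HSPA1A and HSPA1B had 2.34, -0.58 and 0.073 and 2.34, -0.55 and 0.17, with differences of 0.54 ± 0.081 and 0.60 ± 0.0848. Both copies are nearly identical, so their counts are uncertain. LAN5 was the highest of the 3 lines for each of the 6 genes.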

How the results depend on the processing

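The direction and the side of the threshold were the same under every alternative run for 95 of 158 named genes, and under the 3 settings that leave out a sensitive line for 130. No paired analysis was possible because the tables hold no columns per library, and leaving out single libraries could not be run for the same reason. Precision is limited by 3 libraries per group and by 1 resistant line.

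The largest loss came with the random-effects mean: 846 genes were called higher and 1242 lower, 144 higher by at least 1, 841 and 1239 with all sensitive lines on one side, 24 and 17 in the classes with SK-N-BE(2) called higher and lower, and 60 of the 158 named genes lost their call. This error includes the spread among the sensitive lines. With a mean of at least 10, 600 genes were higher and 307 lower by at least 1; with at least 300, 94 and 104. Over the settings without LAN5, IMR5 or SK-N-FI, calls ran from 2173 to 2440 higher and 2617 to 3254 lower, 214 to 304 and 179 to 260 (without SK-N-FI) by at least 1, 1795 to 2131 and 2318 to 2829 on one side, 54 to 64 and 29 to 36 in the opposed classes, and 4387 (without LAN5, with 1 degree of freedom) to 5467 for Cochran's Q. Centring each line on its median gave 2684 higher and 2575 lower. With the sign of SK-N-BE(2) turned, 55 genes were called lower there with a higher sensitive mean. The SK-N-BE(2) effect from its statistic, chosen after seeing the data, gave 2370 and 2929.

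The sign of a difference turned for these genes, and the cause was not tested beyond the line left out. Without LAN5, MAP1A was -1.10, ASS1 -0.025, GCLM -0.035, HSPA1A -0.32 and HSPA1B -0.24. Without IMR5, SLC2A1 was 0.17, TPI1 0.12, GCH1 -0.46 and LAMP1 0.063. Without SK-N-FI, CDT1 was -0.00168, PFKFB3 -0.12 and GATA3 -0.10. GATA3 was also -0.00692 with inverse-variance weights and -0.11 with the sign of SK-N-BE(2) turned, which gave 0.10 for SLC39A10, 0.13 for MAOA and -0.70 for SAMD11. SMAD6 was 0.13 with the switch mean of SK-N-BE(2) doubled.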

Other observations

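Genes outside the lists above included 148 that were higher by at least 1 and 109 that were lower. The sets described here were chosen after their values were seen and are given as values.

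Host genes of small nucleolar RNAs, whose spliced transcripts are often unstable while their introns carry the guide RNAs of ribosome modification, were called higher in 15 of 17 tested and lower in none, against 26.4% and 32.7% of all tested genes, with a median difference of 0.66 that was 0.41 without SK-N-FI. SNHG7 had 0.41, 0.72, 2.47 and -0.15 (difference 1.35 ± 0.145, 0.71 without SK-N-FI) and EPB41L4A-AS1 0.46, 0.68, 2.54 and 0.16 (difference 1.06 ± 0.146, 0.41 without SK-N-FI). SK-N-FI had the highest effect in both. SNHG16 and SNHG20 were not called, with 0.16 ± 0.0785 and 0.35 ± 0.178.

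Genes of the nuclear lamina and inner nuclear membrane gave 5 called higher and 7 lower of 13 tested, with a median of -0.19. LMNA, which encodes lamins A and C, had 2.96, 2.42, 0.05 and 0.08 (difference 1.73 ± 0.0732, 2.61 without SK-N-FI), and so was high in LAN5 and IMR5 and near SK-N-BE(2) in SK-N-FI. The B-type lamin gene LMNB2 had -1.47, -0.86, -0.68 and 0.06 (difference -1.06 ± 0.066), the lamin B receptor gene LBR -0.81, -1.26, -1.12 and 0.06 (difference -1.13 ± 0.0703) and TMPO -1.17, -1.20, -1.43 and -0.04 (difference -1.23 ± 0.0647). Each sensitive line lay below SK-N-BE(2) for LMNB1, LMNB2, LBR and TMPO.

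Genes of polyamine metabolism gave 3 higher and 4 lower of 8 tested. SAT1, which starts polyamine breakdown, had 1.95, 3.74, 1.71 and 0.08 (difference 2.39 ± 0.169). AMD1 and SRM, of polyamine synthesis, had -0.98, -1.42, -0.78 and 0.10 and -1.30, -0.72, -0.48 and -0.10 (differences -1.16 ± 0.0672 and -0.73 ± 0.0994). The nuclear RNAs MALAT1 and NEAT1 had 0.89, 2.18, 1.65 and 0.05 and 1.24, 1.73, 0.60 and -0.01, with differences of 1.52 ± 0.193 and 1.20 ± 0.0683.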
